A study of Homo sapiens with 5 samples.

Results

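The comparison described here set Miapaca cells given an siRNA to the LYNX1 coding region (open reading frame, ORF) beside Miapaca cells given a control siRNA, with 1 Illumina bead array for each. These are 2 of the 5 arrays of the series. The other arrays held Miapaca cells with an siRNA against the 3′ untranslated region (3UTR) of LYNX1, and BXPC3 cells with the control siRNA or the ORF siRNA. Miapaca and BXPC3 are established lines from human pancreatic ductal adenocarcinoma, and no other genotype or agent was named for any group. Per the labels' protocols, Miapaca cells got siRNA 24 h after seeding, at a dose given as 60 pM, with 4 µl of a lipid reagent, and RNA was taken after 72 h. BXPC3 cells got 200 nM with 14 µl of another reagent. A gene entered the comparison where its brightest probe had a detection p under 0.01 on at least 1 of the 2 Miapaca arrays, which took in 10899 of 20043 named genes. Of these, 9352 were detected on both arrays, 923 on the control array only and 624 on the ORF array only. The genes nearest to the threshold were RNASE13 just inside it, at normalized log2 levels of 4.94 and 4.80 on the control and ORF arrays, and EFCC1 just outside it, at 5.16 and 4.93.

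LYNX1 is a small membrane-anchored protein of the Ly6 family that binds nicotinic acetylcholine receptors. An siRNA loads a strand into the RNA interference complex and lowers transcripts that pair with it, including unintended transcripts that match only its seed. Solute carriers and channels set what a cell takes up, transcription factors set which genes it reads, and secreted proteins act on neighbouring cells. These families were described here gene by gene, together with the agreement between probes of the same gene.

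With 1 array in each group there was no estimate of the spread between cultures, so no difference could be tested and all values below describe these 2 arrays. The mean bead intensity was 463 on the control array and 355 on the ORF array, and the part of this gap in the differences was not tested. The LYNX1 probe was not detected on either array (bead intensity 103 and 89.7), so the knockdown could not be checked. Not all epithelial markers of a carcinoma line were present. KRT8, KRT18 and KRT19, keratins of simple epithelium, and VIM, an intermediate filament of mesenchymal cells, were detected on both arrays, while the epithelial genes CDH1, EPCAM and KRT7 and the mesenchymal genes CDH2 and ZEB1 were detected on neither. The detected ones were not at equal levels. On the log2 scale the ORF array stood above the control by 1.74 for KRT19, 0.97 for KRT8, 0.85 for KRT18 and 0.25 for VIM. CDKN2A, a gene deleted from both lines, was detected on none of the 5 arrays, and SMAD4, deleted from BXPC3, was detected on the 3 Miapaca arrays only. Of 10 markers of fibroblasts, endothelium and blood cells, 3 were detected on the control array and 2 on the ORF array, with summed bead intensities of 3014 and 3305. Most of that sum was COL1A2, a chain of type I collagen, at 1997 and 2413, and the myeloid marker CD14 was also detected on both arrays, at 157 and 149. The endothelial marker CDH5 was detected on the control array only (164 and 95.6). The other 7 were detected on neither array, and the part of these markers in the differences was not tested.

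Differences between the arrays ran in both directions and were spread over many kinds of gene. With the ORF siRNA 553 genes stood 2-fold or more above the control, 5.07% of those compared, and 600 stood as far below it, or 5.51%. Together 1153 genes, 10.6%, lay past 2-fold, and 42 were past 4-fold above and 45 past 4-fold below. All values are log2 differences of the ORF array from the control array unless stated otherwise, and the median over all genes compared was 0.02. A gene past 2-fold but detected on only 1 array is given as at least a certain fold, because its dim array gives only a limit. For other probes and smaller differences such a value is marked as a limit, meaning a difference of at least that size. Such limits made up 83 of the higher and 95 of the lower genes past 2-fold. The size of these folds depends on how background was treated. Of 219 named genes past 2-fold, 106 stayed past it without background correction and 107 in the authors' series matrix, and of the 33 given by a limit, 4 did in each. The genes nearest to the 2-fold line were LATS2 just past it and AVPI1 just short of it on the higher side.

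Among the lowest genes were several that belong to no list of gene functions used here. FAM199X went from a normalized log2 level of 8.18 on the control array to 5.25 on the ORF array. PAQR3, a Golgi protein that holds back RAF kinases, was at least 6.60-fold lower, and at least 2.50-fold under the weakest setting. EPDR1, a lysosomal and secreted protein, went from 8.96 to 6.29, and UHMK1, a serine kinase, from 11.23 to 8.61. The second UHMK1 probe stood at −1.79, so both probes placed it past 2-fold. AIDA, an inhibitor of JNK signalling, stood at 11.41 and 8.96, and MSN, the membrane to actin linker moesin, at 10.82 and 8.49. These are bright genes, so neither array was near the background. HS2ST1, a heparan sulfate sulfotransferase, was at least 5.09-fold lower and SCD5, a fatty acid desaturase, at least 4.76-fold lower, and both were short of 2-fold under the weakest setting (1.97 and 1.90). SFXN1, a mitochondrial serine transporter of the sideroflexin family, went from 8.80 to 6.52.

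At the other end, PHLDA2, a pleckstrin homology protein known from growth restriction of the placenta, went from 5.84 to 8.75. RIMBP3 went from 5.33 to 8.13, DCUN1D3, a cullin neddylation factor, from 5.79 to 8.52, and NDRG4 from 5.97 to 8.63. A second NDRG4 probe gave a smaller difference of 0.49 (limit). INKA1, an inhibitor of the kinase PAK4, went from 5.73 to 8.37 and RRAS, a RAS-related GTPase, from 8.33 to 10.68. LEMD1 was at least 6.60-fold and CYSRT1 at least 5.84-fold higher, both detected on the ORF array only, and these limits were 2.33 and 2.13 under the weakest setting. Several of these genes were dim on the control array and clear on the ORF array, whereas RRAS was well above background on both.

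**Figure D1:**
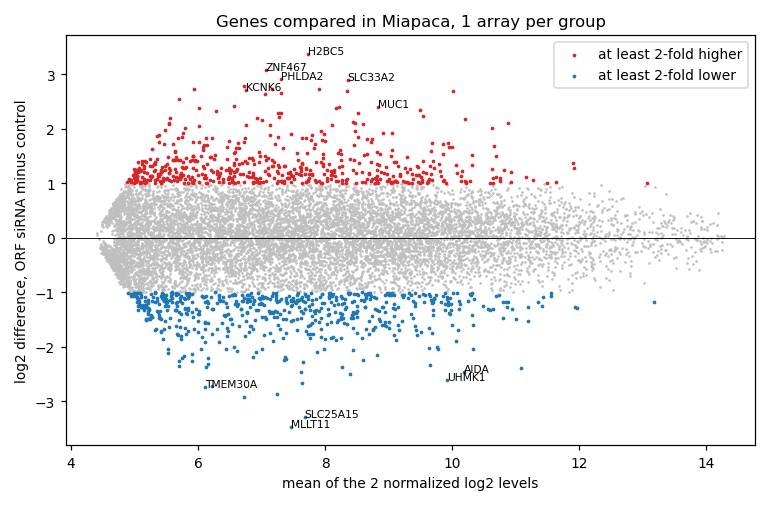
Each point is a gene compared between the 2 Miapaca arrays, with the mean of its normalized log2 levels on the x axis and its log2 difference (ORF siRNA minus control) on the y axis. The 553 genes past 2-fold above control are red and the 600 below it are blue, and both colours occur across most of the range of levels.

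The 1153 genes past 2-fold were only partly covered by gene families. The 42 lists used here, in 7 families, are defined by gene symbols and held 1950 of the genes compared. They took in 210 of the genes past 2-fold and left 943 outside. Of 460 zinc finger genes measured, 9.13% lay past 2-fold, beside 10.6% over all genes. The share was 11.5% of 305 transporters and 13.5% of 215 secreted proteins, and 25 higher and 16 lower of 273 transcription factors of other families. Family medians were 0.07 for transporters, 0.00 for zinc fingers, 0.05 for transcription factors and 0.18 for secreted proteins. With no error estimate these shares and medians describe the 2 arrays and do not set a family apart. List medians also move with the scaling of the arrays, which put the median of all genes anywhere between −0.55 and 0.15. Without normalization the medians of all 4 families were negative, so their signs hold for quantile normalization. Relative to all genes, the median stayed between 0.07 and 0.18 for secreted proteins and between 0.02 and 0.07 for transporters over all settings, while that of zinc fingers crossed 0.

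**Figure D2:**
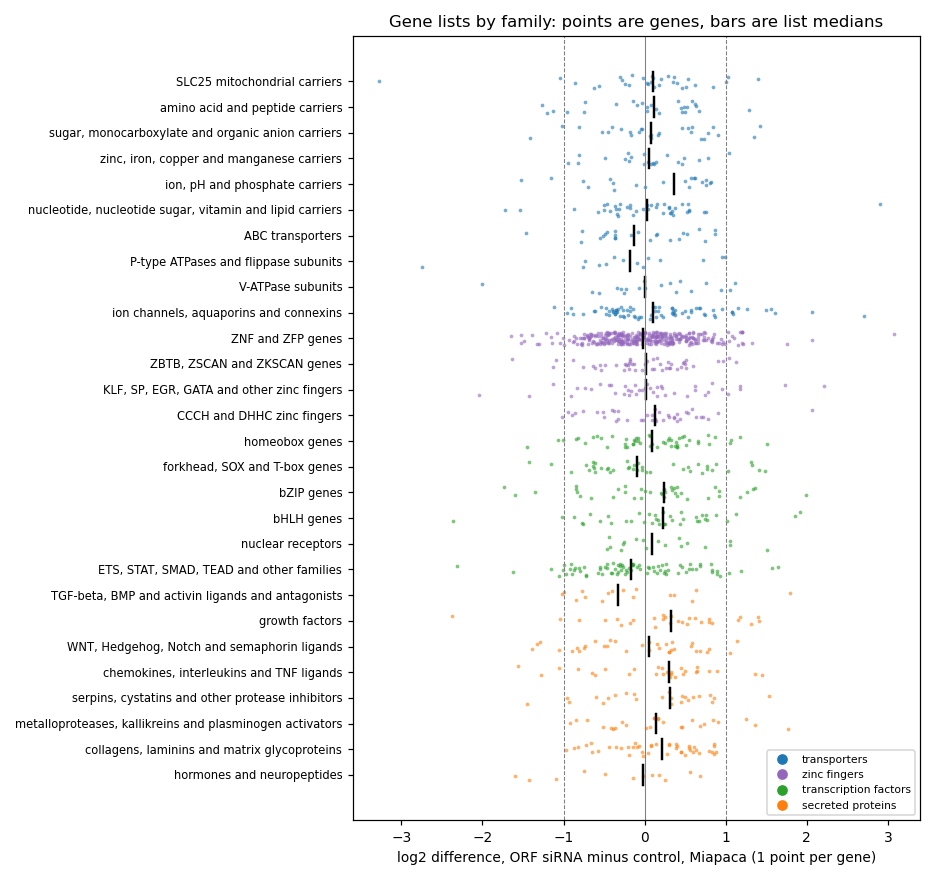
Each point is a gene, placed by its log2 difference between the ORF siRNA and control arrays in Miapaca, and rows are the lists of transporters, zinc fingers, other transcription factors and secreted proteins, coloured by family. Black bars are list medians, which lie between −0.33 and 0.36, and dashed lines mark 2-fold; most members of each list lie between them.

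Transporters were higher in 20 and lower in 15 of the 305 measured members past 2-fold, out of 669 on the array. Mitochondrial carriers of the SLC25 family, which move metabolites across the inner membrane, had 31 measured members and a median of 0.11. SLC25A15, the ornithine carrier, stood at 9.32 on the control array and 6.04 on the ORF array, but its next probe gave −0.10. SLC25A40, a carrier linked to mitochondrial glutathione, stood at 7.22 and 6.17, and its next probe gave −1.44 (limit), so both probes lay past 2-fold. SLC25A10, the dicarboxylate carrier, was higher, at 7.23 and 8.63. SLC25A26, which imports S-adenosylmethionine, stood at 1.03 by its brightest probe and at 0.13 and 1.21 (limit) by the others.

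Among 26 measured amino acid and peptide carriers 1 was at least 2-fold higher and 3 lower. These shares were 3.85% and 11.5%, beside 5.07% and 5.51% of all genes. SLC1A5, the main glutamine importer of many tumour cells, went from 9.54 to 8.27, and SLC7A6, an exchanger of cationic and neutral amino acids, from 8.16 to 7.03. Another SLC7A6 probe gave −0.57. SLC36A4 stood at −1.21 by its brightest probe and at 0.65 (limit) by the next, so its direction is not settled. SLC6A6, the taurine transporter, was at least 2.43-fold higher, detected with the ORF siRNA only. Over the 26 measured amino acid and peptide carriers, 16 lay above the control and 10 below, with a median of 0.11.

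Among carriers of sugars and organic anions, SLC22A5, the carnitine transporter, went from 6.15 to 7.58 and SLC16A5, a monocarboxylate transporter, from 6.96 to 8.31. SLC2A10, a glucose transporter family member, was at least 2.65-fold lower, while its next probe gave −0.33 (limit). SLC22A17, a receptor for lipocalin 2, stood at −1.01. The 22 measured metal carriers held 1 member past 2-fold, the zinc importer SLC39A4, at 6.75 and 7.79.

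The ion, pH and phosphate carriers had the highest median of any transporter list, 0.36, yet the 2 members past 2-fold were lower. SLC12A2, the sodium, potassium and chloride cotransporter, stood at −1.53 and its next probe gave −2.18 (limit). The sulfate transporter SLC26A2 was at least 2.23-fold lower. SLC20A1, a phosphate importer, was the highest member at 0.82, short of 2-fold. Of the 42 carriers of nucleotides, nucleotide sugars, vitamins and lipids, SLC33A2 stood highest at 6.91 and 9.80, with a single detected probe. SLC35F2 went from 8.67 to 7.14 with a next probe at −1.02, and SLC35B4, a carrier of UDP-xylose, was at least 3.30-fold lower.

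The share past 2-fold was 7.14% of P-type ATPases and flippase subunits, 4.17% of ABC transporters and 15.8% of lysosomal proton pump subunits. Over all genes it was 10.6%. The 14 measured P-type ATPases and flippase subunits had a median of −0.18, and only TMEM30A, the partner that flippases need to leave the endoplasmic reticulum, lay past 2-fold, at least 6.70-fold lower and at least 2.45-fold under the weakest setting. Of 24 ABC transporters, ABCA2 was at least 2.76-fold lower and none was 2-fold higher. Subunits of the lysosomal proton pump went both ways, with ATP6V1C1 at 7.58 and 5.57, ATP6V0A1 at 8.95 and 10.06 and ATP6AP1 at 10.74 and 11.79. Of 79 channels, aquaporins and connexins, 10 were at least 2-fold higher and 1 lower, or 12.7% and 1.27% beside 5.07% and 5.51% of all genes. KCNK6 and KCNK5, potassium leak channels, stood at 2.71 and 1.55. P2RX6, an ATP-gated channel, stood at 2.06 and GJB5, an epidermal connexin, at 1.61, while MICU2, a gatekeeper of the mitochondrial calcium uniporter, stood at −1.12. P2RX6 and GJB5 were dim on the control array, at 4.98 and 5.27. Under the weakest setting they stood at 0.93 and 0.74, short of 2-fold.

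Zinc finger genes were balanced between higher and lower. Of 330 measured ZNF and ZFP genes, 162 lay above and 168 below the control, with a median of −0.02. Past 2-fold were 15 and 13 (4.55% and 3.94%), beside 5.07% and 5.51% of all genes. ZNF467 went from 5.52 to 8.60, apart from the next highest, ZFP36, at 2.07 and ZNF837 at 1.76. ZFP36, or tristetraprolin, speeds the decay of messages with AU-rich elements, and stood at 7.08 and 9.15. On the lower side ZNF226 stood at −1.65 and −1.09 by its 2 detected probes, and ZNF22 at −1.53 and −0.93. ZNF45 and ZNF670 stood at −1.53 and −1.49 by single probes. ZNF268, at 1.32, was dim on the control array, at 4.82.

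Other zinc finger classes held some of the larger differences. KLF13, a Krüppel-like factor of lymphoid cells and heart, went from 6.17 to 8.38, and KLF9, a factor induced by glucocorticoids and thyroid hormone, from 6.97 to 8.70. KLF10, known as a TGF-beta inducible early gene, stood at 1.18, with its next probe at 0.52 (limit). SP4, a relative of SP1, went from 7.46 to 5.42, and its next probe agreed at −2.25. GATAD1 stood at −1.43, SALL2 at −1.14 and ZHX3 at 1.17. Among BTB and SCAN domain genes ZBTB2 went from 6.36 to 4.73, and ZBTB43 stood at 1.13. Of 41 CCCH and DHHC genes, only ZFP36 and ZC3H12D, at least 2.03-fold lower, lay past 2-fold.

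Transcription factors of other families were at least 2-fold higher in 25 and lower in 16 of the 273 measured. These shares were 9.16% and 5.86%, beside 5.07% and 5.51% of all genes. The bHLH list had 26 of 39 members above the control and a median of 0.23. HES4, of the Notch target HES family, went from 7.95 to 9.87 and MXD4, an antagonist of MYC, from 7.59 to 9.45. CLOCK, a core circadian factor, went from 7.31 to 4.94 by its brightest probe, while the next stood at 0.17. TCF12 was lower by both probes, at −1.02 and −1.20. ID2 stood at 1.13 and −0.23 by its 2 probes, and MLX at 1.01 and −0.18, so both are unsettled.

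The bZIP list had 25 of 40 members above the control, with a median of 0.24. Past 2-fold were 5 higher and 3 lower (12.5% and 7.5%), beside 5.07% and 5.51% of all genes. JUN went from 9.65 to 10.99 and DDIT3 from 6.08 to 7.44. On the lower side CREBZF went from 7.99 to 6.26 and NFE2L2, or NRF2, the factor of the antioxidant response, from 9.70 to 8.10. CREB3L3, a factor of liver and gut, was at least 2.40-fold higher. Of 18 measured nuclear receptors 10 lay above the control and 8 below, with a median of 0.09. The 3 past 2-fold were higher, 16.7% beside 5.07% of all genes. NR1H3, the oxysterol receptor LXR alpha, went from 6.30 to 7.80 and its dimer partner RXRB from 7.80 to 8.85. THRA, a thyroid hormone receptor, stood at 1.05 with a next probe at 0.07.

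Of 53 measured homeobox genes, 4 were at least 2-fold higher and 3 lower (7.55% and 5.66%), near the 5.07% and 5.51% of all genes. ONECUT2, a factor of liver and pancreas development, stood at 1.51, 1.37 and 0.99 (the last a limit) by 3 probes. HOXB2 went from 9.61 to 10.66 and LHX1 from 5.65 to 6.72, while DLX1 stood at −1.45 and −0.79 (limit) by 2 probes and SIX4 at −1.07. In the forkhead, SOX and T-box list SOX18, an endothelial and lymphatic factor, stood at 1.41 and FOXD1 went from 8.98 to 10.31. TOX2 stood at 1.31, 1.01 and 0.79 by 3 probes, with limits for the last 2. MGA, which opposes MYC, stood at −1.42, and FOXK2 was at least 2.22-fold lower.

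The remaining factor families had 48 of 82 members below the control and a median of −0.16. GABPA, the DNA-binding subunit of the ETS factor GABP, went from 7.31 to 4.99, and CBFB, the partner of RUNX factors, from 10.22 to 8.60. Both rest on a single detected probe. MEF2D stood at 1.64 and ARID3B went from 6.18 to 7.75. TEAD family members, which act with YAP, went apart: TEAD4 stood at 1.19 with another probe at 0.39, and TEAD1 was at least 2.22-fold lower. ELF3, an epithelial ETS factor, stood at 1.04 from a dim 4.93 on the control array.

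**Figure D3:**
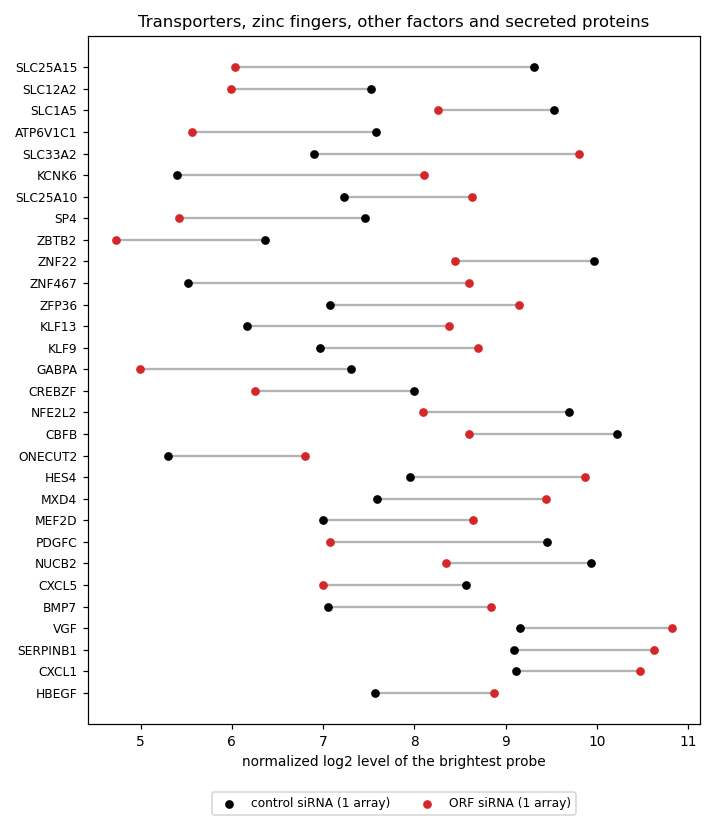
The x axis gives the normalized log2 level of the brightest probe for 30 transporters, zinc fingers, other transcription factors and secreted proteins, with the control array in black and the ORF siRNA array in red. The widest gap is that of SLC25A15, which fell by 3.28 on the log2 scale, and the points carry no error bar because each is 1 array.

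Secreted proteins had 127 of 215 measured members above the control and 88 below, where 51.3% of all genes lay above. Past 2-fold were 15 and 14 (6.98% and 6.51%), near the 5.07% and 5.51% of all genes. The array holds 702 such genes, and the others were detected on neither array. Growth factors had 21 of 29 members above the control and a median of 0.32. HBEGF, a ligand of the EGF receptor, went from 7.57 to 8.88. PDGFB stood at 1.40 and 0.76 (limit) by 2 probes, and ANGPTL4, an inhibitor of lipoprotein lipase, at 1.18, 0.67 and 0.22 (the last a limit) by 3. PDGFC, the other platelet-derived factor past 2-fold, was lower, at 9.45 and 7.08, and FGF2 stood at −1.04 and −0.75 (limit) by 2 probes. So the 2 platelet-derived ligands stood on opposite sides of the control.

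Among TGF-beta family ligands and antagonists 11 of 16 lay below the control, with a median of −0.33. BMP7, a bone morphogenetic protein, was the exception past 2-fold, at 7.05 and 8.84. TWSG1, which binds BMPs outside the cell, stood at −1.02 by both of its probes. Of 34 WNT, Hedgehog, Notch and semaphorin ligands, 2 were at least 2-fold higher and 4 lower. These shares were 5.88% and 11.8%, beside 5.07% and 5.51% of all genes. WNT4 was at least 2.20-fold and DRAXIN at least 2.08-fold higher, both undetected on the control array. RGMB, a BMP co-receptor, stood at −1.39 and SEMA3C, a secreted guidance cue, at −1.06. SFRP1, a WNT antagonist, was at least 2.44-fold and SEMA4G at least 2.50-fold lower.

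Chemokines that share the receptor CXCR2 stood on opposite sides. CXCL1 went from 9.12 to 10.47, whereas CXCL5 stood at −1.57 with a next probe at −0.48. CXCL14 was at least 2.72-fold higher. TNFSF4, the OX40 ligand, stood at −1.28 and −0.76 (limit) by 2 probes, and IL17D at −1.05. Over the 29 members of the chemokine, interleukin and TNF ligand list the median was 0.30, with 20 above the control.

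Of 26 measured metalloproteases, kallikreins and plasminogen activators, 3 were at least 2-fold higher (11.5%) and 0 lower. Of 24 measured protease inhibitors 1 was higher and 1 lower (4.17% each), beside 5.07% and 5.51% of all genes. KLK6 and KLK7, kallikreins whose genes are neighbours on chromosome 19, went from 10.19 to 11.43 and from 5.46 to 6.81. ADAMTSL4 was at least 3.40-fold higher, and its next probe stood at 1.67 (limit). SERPINB1, an inhibitor of neutrophil elastase, went from 9.09 to 10.63, while SERPINB9, an inhibitor of granzyme B, was at least 2.74-fold lower with another probe at −0.40 (limit). None of the 44 measured collagens, laminins and matrix glycoproteins lay past 2-fold, where 10.6% of all genes did, and this gap was not tested. They ranged from −0.97 for LAMB2, a laminin chain detected on the control array only (limit), to 0.88 for COL1A2, with 26 above the control.

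Of only 13 measured hormone and neuropeptide genes 1 was at least 2-fold higher and 3 lower. These shares were 7.69% and 23.1%, beside 5.07% and 5.51% of all genes. VGF, a neuropeptide precursor, went from 9.16 to 10.83. NUCB2, the nesfatin precursor, went from 9.94 to 8.35, NMU, neuromedin U, from 6.94 to 5.85, and STC1, stanniocalcin, was at least 2.68-fold lower.

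Outside these families, the list of pleckstrin homology-like, TSC22, GADD45 and growth arrest genes had 19 of 24 members above the control and a median of 0.42. In it 5 were at least 2-fold higher (20.8%) and 0 lower, beside 5.07% and 5.51% of all genes. TSC22D3, a glucocorticoid-induced leucine zipper protein, stood at 2.02 and 1.21 (limit) by 2 probes, and TXNIP, an inhibitor of thioredoxin, went from 8.80 to 10.11. Dual-specificity phosphatases and Sprouty-related genes, which hold back MAP kinases, had 5 of 23 at least 2-fold higher (21.7%) and 0 lower. Both lists are small, so a count of 0 says little beside these shares of all genes. DUSP1 went from 8.69 to 9.97 and DUSP16 stood at 1.38. MAP2K4, a kinase that activates JNK, was lower by both probes, at −2.25 and −1.88. TRIM24, a chromatin reader, stood at −1.70, and its next probe, a limit, was lower still.

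SR proteins, hnRNPs and related splicing factors, which bind and splice pre-mRNA, had more members below the control than above it. Of 48 measured SR proteins, hnRNPs and splicing factor subunits, 35 were below the control, 4 of them past 2-fold (8.33%, beside 5.51% of all genes), with a median of −0.35, which stayed between −0.39 and −0.27 relative to all genes over the settings tried. SRSF7 went from 9.03 to 7.22, and HNRNPH3 stood at −1.70 and −1.79 by 2 probes. HNRNPR stood at −1.25 by its brightest probe and at −0.18 and −0.61 by the others. Some members of this list are near-identical copies of each other, whose signals the probes may share. The list median was −0.28 with the 3UTR siRNA, which shares the control array, and −0.05 in BXPC3. Ubiquitin-specific proteases had 30 of 41 members below, with a median of −0.21; USP14, of the proteasome, stood at −1.66 and −0.63 by 2 probes. Helicases, tRNA synthetases and translation initiation factors had medians of −0.06, −0.05 and −0.09. WARS1, the tRNA synthetase for tryptophan, was lower by both probes, at −1.65 and −1.71. Mitochondrial ribosomal proteins and proteasome subunits, with 75 and 40 measured members, held 1 and 0 genes past 2-fold, MRPS9 at −2.01 being the one. These shares were 1.33% and 0%, beside 10.6% of all genes.

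Probes of the same gene read the same cRNA on the same array, so they check the probe and not the culture. Among the genes compared, 2850 had a second detected probe. It had the same sign as the brightest probe in 1922 of them, or 67.4%, and the differences correlated across genes at r = 0.52, with the arrays shared by every point. Where both probes were detected on both arrays, the share was 68.6% of 2313 genes. It was 69.4% where both probes carry the same transcript accession and 67.0% where the accessions differ. With second probes split into 4 bins by level, it was 61.0% in the dimmest bin, 71.3% and 71.8% in the middle bins and 70.4% in the brightest. So in this share only the dimmest bin stood apart. The SD of the difference between probes fell through all bins, from 0.66 in the dimmest through 0.61 and 0.55 to 0.42 in the brightest, on the log2 scale.

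A second probe was available for only some of the genes past 2-fold. Of the 553 higher genes 113 had a second detected probe, and it was past 2-fold above control too in 30, the same way but short of 2-fold in 61 and opposite in 22. Of the 600 lower genes 194 had one, at least 2-fold lower in 82, the same way in another 89 and opposite in 23. As shares these were 26.5% and 42.3%, beside 3.23% and 6.84% of all second probes past 2-fold higher and lower. For 440 higher and 406 lower genes no second probe was detected, so their values rest on 1 probe.

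Genes past 2-fold the same way by 2 probes included several without a place in the family lists. On the lower side MASTL, a kinase that opens mitosis, stood at −1.89 and −2.50 (limit). HMGB2, a chromatin protein, stood at −1.69 and −1.88, and AKTIP at −1.74 and −1.90. DENND5A, an activator of RAB GTPases, stood at −1.67 and −1.69, and COPS8, a subunit of the COP9 signalosome, at −1.75 and −1.64. AP1S2, an adaptor of clathrin coats, stood at −1.67 and −1.98, and RHOT1, a GTPase of mitochondrial transport, at −1.54, −1.50 and −1.74 by 3 probes. On the higher side ZP3 stood at 2.24, 1.63 and 1.20 by 3 probes, AHNAK2 at 2.18 and 1.62, KANK4 at 1.58 and 1.87, and TCEA2, a transcription elongation factor, at 1.42 and 1.65. PLAUR, the urokinase receptor, stood at 1.76, 2.29 and 1.70 by 3 probes. RNU6ATAC, a spliceosomal RNA of minor introns, stood at 1.71 and 1.64.

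Other genes had probes that contradicted each other. PRKDC, the DNA-dependent protein kinase, stood at 0.89 by its brightest probe and at −1.52, −0.80 and −0.36 by the others, the last 2 as limits. TMEM64 stood at 0.75, −1.79 and 0.29, the last 2 as limits, and ATP5MG, a subunit of the ATP synthase, at 0.33 and −1.97. AK5 stood at −1.19 and 1.09 (limit). BTRC, a ubiquitin ligase subunit, was at least 2.17-fold lower by 1 probe and at least 1.14 higher on the log2 scale by another. No direction is given for these genes.

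**Figure D4:**
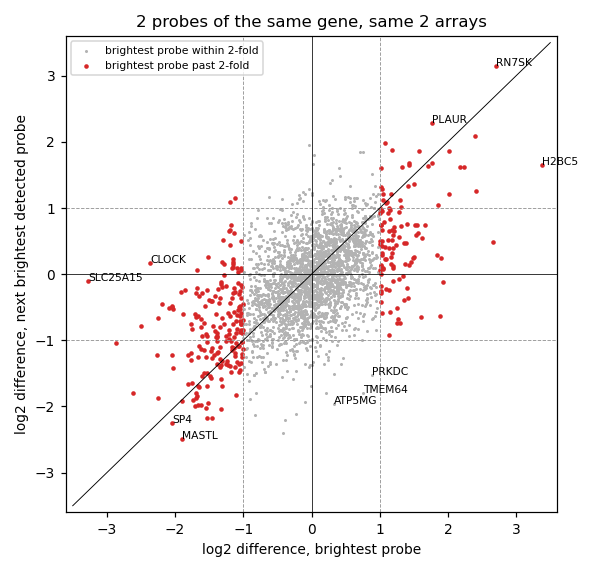
For 2850 genes with a second detected probe, the x axis gives the log2 difference (ORF siRNA minus control) by the brightest probe and the y axis that by the next brightest. Red points are genes past 2-fold by the brightest probe, the diagonal marks equality, and most red points lie on the same side of 0 by both probes but closer to 0 by the second.

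The position of genes in the genome was not used to choose them, and their directions differed by chromosome. On chromosome 19, 68 of 791 genes (8.60%) lay past 2-fold above control and 25 (3.16%) below, and the median was 0.15. On chromosome 22, 7.27% of 275 genes were higher and 2.18% lower. Chromosome 18 went the other way, with 2.04% of 147 genes higher and 10.2% lower and a median of −0.16, and chromosome 13 had a median of −0.20 over 185 genes. Relative to all genes, the chromosome 19 median stayed between 0.06 and 0.14 over all settings tried, and that of chromosome 18 between −0.19 and −0.09. The 147 ZNF and ZFP genes of chromosome 19 did not share its direction, with a median of −0.10 relative to all genes (−0.12 to 0.01 over the settings) beside 0.17 for the other 644. With the 3UTR siRNA, which shares the control array, the medians were 0.04 and −0.22 for chromosomes 19 and 18. In BXPC3, on separate arrays, they were −0.01 and −0.03. These properties were looked at after the other results and carry no test.

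**Figure D5:**
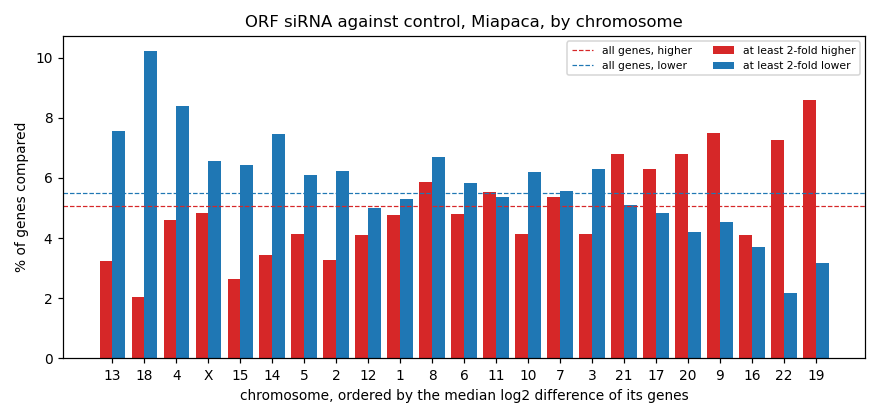
Bars give, for each chromosome, the percent of its genes that lay past 2-fold above (red) or below (blue) the control with the ORF siRNA in Miapaca, ordered by the median log2 difference. Dashed lines are the shares over all genes, 5.07% and 5.51% over all chromosomes. Red exceeds blue on chromosomes 22 and 19 at the right (7.27% against 2.18% and 8.60% against 3.16%), and blue exceeds red on chromosome 18 near the left (10.2% against 2.04%).

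Small nucleolar, small nuclear and long noncoding RNAs were more often past 2-fold above than below control. Of 157 small nucleolar RNAs 25 were at least 2-fold higher and 2 lower, of 14 small nuclear RNAs 4 were higher and 0 lower, and of 216 long noncoding RNAs 16 were higher and 5 lower. The small nucleolar RNA median was 0.19, beside −0.05 with the 3UTR siRNA and −0.03 in BXPC3. Other classes did not share this: of 44 miRNA genes 1 lay past 2-fold, and all 4 Y RNAs lay below control, with a median of −0.55. Among the 10231 protein-coding genes the shares were 4.86% and 5.73%.

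Promoter sequences of RefSeq (GRCh38.p14, from 250 bases before to 50 after the start) were matched by symbol for 8614 of the 10231 coding genes. They covered 404 of the 497 higher and 502 of the 586 lower coding genes. The letters TTTGAA on either strand, the core of the cell cycle genes homology region known from promoters of mitotic genes, lay in 15.1% of promoters of lower genes and 5.69% of higher genes. Of all coding genes compared 10.00% held them, as did 15.4% of all promoters in the table. TATAAA, the TATA box, went the other way, at 8.17% of higher, 3.78% of lower, 5.71% of compared genes and 12.0% of all promoters. The letters of 6 other motifs were also counted. CCAAT, the CCAAT box, lay in 35.1% of higher, 41.2% of lower and 37.8% of compared genes. CCGGAAG of ETS factors lay in 14.4%, 21.1% and 20.1%, and GGGCGG of SP factors in 74.8%, 70.5% and 70.5%, so the lower genes were at the share of all compared genes. CACGTG, an E-box, lay in 11.4%, 7.97% and 10.7%, TGACTCA of AP-1 in 4.21%, 3.19% and 2.87%, and TGACGTCA of CREB factors in 3.71%, 3.59% and 3.55%. Over all promoters in the table these 6 shares were 35.7%, 10.7%, 44.6%, 7.43%, 4.92% and 1.98%, in the order given. Each motif was searched on both strands, and overlaps between different motifs were not removed. Relative to all genes, the median of genes with TTTGAA stayed between −0.10 and −0.06 over the settings and that of genes with TATAAA between 0.06 and 0.12. In BXPC3 these medians were −0.03 and 0.02. A match is of letters only and does not show that a factor bound there.

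To show what such matches look like, 26 bases around TTTGAA (capitals) are given 5′ to 3′ on the strand that reads these letters, for the 6 lowest genes with a match ahead of the start, in order:
MLLT11: gaacctatcaTTTGAAttagccgagt
DEPDC1: ccgccgccgaTTTGAAtagcatagag
CDC40: tgtcttacatTTTGAAacaataagct
H2AX: attggtcgaaTTTGAAaaccttttgc
METTL9: ttgtgtatctTTTGAAtattactaac
KIF11: ggcgcctcaaTTTGAAaaagagacag

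They lie at chr1:151060306-151060331 on the plus strand for MLLT11, the lowest gene of all at −3.46, and at chr1:68497094-68497119 on the plus strand for DEPDC1 (−1.84). The window of CDC40, a splicing factor, is chr6:110180308-110180333, minus strand (−1.83). That of H2AX, a histone variant that marks DNA breaks, is chr11:119095614-119095639, plus strand (−1.76). METTL9, a histidine methyltransferase, lies at chr16:21596982-21597007, plus strand, and was at least 3.22-fold lower, with another probe at −0.65. KIF11, a motor of the mitotic spindle, lies at chr10:92593092-92593117, minus strand, and its 2 probes stood at −1.68 and −1.85. The letters end 21 and 22 bases before the start in DEPDC1 and KIF11, and between 75 and 210 bases before it in the other 4.

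The 6 highest genes with TATAAA ahead of the start are shown in the same way, with these letters in capitals and the match closest to the start where there are several:
H2BC5: ataccgcatcTATAAAtgaacagggc
NDRG4: aggatccctgTATAAAtggcccagga
MUC1: gggggaccggTATAAAgcggtaggcg
H2BC21: ataaggtggtTATAAAagaatcaggc
H2BC12: agaggtcctaTATAAAaacgactcct
FOSB: gtcccgggcaTATAAAtacaggctgg

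Their windows are chr6:26158083-26158108 on the plus strand for H2BC5 (3.38 and 1.65 by 2 probes) and chr16:58500104-58500129 on the plus strand for NDRG4. The mucin MUC1, whose 3 probes stood at 2.40, 2.09 and 1.08, lies at chr1:155192924-155192949, minus strand. H2BC21 (2.33) lies at chr1:149886697-149886722, minus strand, and H2BC12 (2.02 and 1.86) at chr6:27146870-27146895, minus strand. H2BC5, H2BC12 and H2BC21 encode near-identical H2B histones, so their probes may share signal. FOSB, an AP-1 subunit at least 3.97-fold higher, lies at chr19:45467956-45467981, plus strand. In all 6 the letters end 18 to 24 bases before the start.

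The same siRNA in BXPC3 cells was read on separate arrays, at another dose and with another reagent, so no array is shared. There 0.631% of 11252 genes lay past 2-fold above control and 0.462% below, 1.09% in all. Of the 553 genes higher in Miapaca, 455 were compared in BXPC3, and 299 lay above the BXPC3 control, with a median of 0.16. Of the 600 lower genes 542 were compared, and 427 lay below it, with a median of −0.25. Over all genes 49.4% lay above. Past 2-fold in BXPC3 were 8 of the higher genes and 5 of the lower ones, and 0 in the opposite direction. GABPA was among the lower ones, at −1.11 in BXPC3, beside −0.49 with the 3UTR siRNA in Miapaca. SLC25A15, whose next probe gave −0.10 in Miapaca, stood at −0.88, MLLT11 at −0.85, PDGFC at −0.60 and UHMK1 at −0.64 in BXPC3. KLF13 stood at 0.85 there (limit), AHNAK2 at 0.99 and ARID3B at 0.81, while SLC1A5 stood at 0.39, opposite to Miapaca.

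With the 3UTR siRNA, which shares the Miapaca control array, 4.22% of genes lay past 2-fold above control and 4.64% below, 8.86% in all. Of the 20 highest genes with the ORF siRNA, all but MUC1 (−0.33) also lay above control with the 3UTR siRNA. ZNF467 stood at 2.90 there, SLC33A2 at 1.54 and H2BC5 at 1.45. Of the 20 lowest, all but MOSPD2 (1.07), MLLT11 (0.88), UHMK1 (0.16), TMEM30A (0.12) and FAM199X (0.06) also lay below control. AIDA stood at −0.36 and MSN at −0.00 with that siRNA. KLF13 stood at 0.30, SERPINB1 at 0.00, PHLDA2 at 0.48, CXCL1 at −0.48 and VGF at −0.31. SLC7A6 at −1.71, SEMA3C at −1.22, FGF2 at −1.01 and ZFP36 at 1.34 had the same sign as with the ORF siRNA. A single control array enters both comparisons, so a deviation of that array appears in both.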

How the data were processed

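RNA of 5 cultures was measured on Illumina bead arrays, and 2 arrays are compared here. The authors deposited mean bead intensities per probe, not normalized between arrays per the file headers, and the p-value of detection that goes with every mean. They also deposited a series matrix of intensities that are normalized by a method the sources used here do not give. Of 48107 probes 1 with a missing value was left out. In R 4.3.3, limma 3.58.1 (neqc) corrected the background of all 5 arrays from the deposited detection p-values (normexp, offset of 16), quantile-normalized them and took log2. Python 3.11.15 with pandas 2.3.3 and numpy 2.4.6 made the comparisons. The platform annotation named 1 gene for 30113 probes and more than 1 for 8, and 17985 probes were not in it. Older symbols were replaced through accessions (29077 probes) or Entrez identifiers (1015) from the GRCh38.p14 gene table. Each gene was read by its brightest probe over the 5 arrays. For a gene detected on 1 array, the dim side was taken as its measured value or the dimmest detected signal of that array, whichever was higher. The steps were tested on simulated data. Each group has 1 array, so no test was made, and this limits the precision. The gene lists are symbol patterns or names. They, the genes compared and the settings were chosen with earlier results of these data known. The naming rule took the 20 highest and 20 lowest genes, up to 4 members of each list past 2-fold each way, the 15 each way best supported by a second detected probe, the 8 whose probes differ most in opposite directions, and cell markers. Not all of these are named. Genes at a threshold, the ends of a list's range, and genes shown with promoter windows are outside that rule and were picked after their values were seen, as were the motif, chromosome and RNA class summaries. Alternatives were scaling, background correction, offset, detection threshold, probe choice and the authors' series matrix.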

Additional observations from a re-analysis of the deposited data

Results flagged for a closer look

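Among the named genes, 4 stood at least 1.5-fold from control in both lines but in opposite directions with the ORF siRNA. With 1 array per group the difference between the lines was not tested. INKA1 stood at 2.64 in Miapaca and −0.73 in BXPC3 (log2 difference). ONECUT2 stood at 1.51 and −0.85, with its BXPC3 value a limit because it was detected on the control array only. THRA stood at 1.05 and −0.75, also a limit in BXPC3, and its second Miapaca probe gave 0.07. STC1 was a limit of −1.42 in Miapaca and stood at 0.70 in BXPC3.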

How the results depend on the processing

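Counts past 2-fold depended on the scaling and on how background was treated, and the cause was not tested. Median scaling over probes detected on all 5 arrays put the all-gene median at 0.15 and gave 1015 higher and 486 lower genes, so that 67.6% of those past 2-fold were higher. Without normalization between arrays the median was −0.55, with 123 higher and 2541 lower genes. Median scaling over all probes, chosen after seeing the data, gave −0.40, with 188 and 1822. No background correction gave 146 higher and 199 lower, an offset of 50 gave 249 and 307, and the authors' series matrix 164 and 197. The other settings kept both counts within 1.5 times. The probe agreement in sign was 76.5% with median scaling over all probes, 81.5% with no normalization and 65.2% at a detection p under 0.05. Median scaling over all probes and no normalization put most genes below the control. Such a shift by itself makes signs agree more often, so the higher shares do not measure better agreement between probes. The zinc finger median was 0.16 and −0.39 under the 2 median scalings and −0.54 without normalization. The transporter median was 0.031 without background correction. That of secreted proteins was 0.097 without background correction, 0.13 with an offset of 50 and 0.089 in the series matrix. As means over detected probes, 4 genes whose probes disagree changed sign: BTRC to 0.013, PRKDC to −0.45, TMEM64 to −0.25 and ATP5MG to −0.82. ATP5MG was also negative with median scaling over all probes (−0.051) and without normalization (−0.20). Of 219 named genes past 2-fold, 142 stayed past it with an offset of 50 and 150 without normalization. No paired analysis was possible because each group holds 1 array.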
